A study of Mus musculus with 3 samples.

Results

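Interferon-stimulated genes are the genes that cells switch on when an interferon binds its receptor. A set of 40 of them was followed, out of 37325 genes read on the arrays, from transcription factors of the response to its effectors. The members are named genes, and the probes that carry those names on the array were read. They were followed in 3 fractions of epididymal fat from male C57/BL mice aged 20 weeks. Stromal vascular cells (SVC) were the lower phase after collagenase digestion and a spin of 9 g for 1 sec. Small proliferative adipocytes (SPA) were the sediment, and mature adipocytes (MA) the floating layer, when the floating cells were spun again at 226 g for 3 min. SVC and SPA were grown in DMEM to 90% confluency before RNA was taken, and no culture is described for MA, which the study also calls mature white adipocytes. Each fraction was measured on 1 one-colour array, so no difference below has a replicate check, no test was possible and no p-value is given. The sample labels do not give the number of animals behind an array.

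Interferons of type I, such as interferon beta and the interferon alpha family, act through the receptor IFNAR, the kinases TYK2 and JAK1, and a complex that holds STAT2 and IRF9. That complex binds the interferon-stimulated response element (ISRE) in promoters. Interferon gamma, made mainly by lymphocytes, acts through IFNGR, JAK1 and JAK2 on promoters that hold the gamma-activated site (GAS), and it induces IRF1, which in turn binds elements like the ISRE. The products of the induced genes degrade viral RNA, hold back translation, restrict membranes to pathogens and raise antigen presentation. In fat, both adipocytes and the immune cells between them are able to respond.

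The sequences upstream of 6 members are shown, because among members with a promoter in the reference table they had the 4 highest and the 2 lowest measured ratios of MA over SPA. Each runs 5′ to 3′ on the strand of the gene over the 160 bases before the transcription start (RefSeq, GRCm38.p6). Capitals mark matches to the ISRE core, GAAANNGAAA on either strand, or to the GAS, TTCNNNGAA.
Gbp3 (chr3:142559884-142560043, plus strand): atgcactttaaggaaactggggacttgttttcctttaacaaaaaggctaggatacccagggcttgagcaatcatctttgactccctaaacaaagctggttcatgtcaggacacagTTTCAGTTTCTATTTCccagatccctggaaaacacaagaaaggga
Gbp2 (chr3:142620503-142620662, plus strand): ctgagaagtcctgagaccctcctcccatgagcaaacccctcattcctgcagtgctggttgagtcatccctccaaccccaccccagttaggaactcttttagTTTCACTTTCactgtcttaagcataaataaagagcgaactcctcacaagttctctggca
Ifit3 (chr19:34583369-34583528, plus strand): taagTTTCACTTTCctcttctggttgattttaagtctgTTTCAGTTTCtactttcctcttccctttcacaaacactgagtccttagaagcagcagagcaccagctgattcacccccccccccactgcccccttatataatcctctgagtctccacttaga
Irf1 (chr11:53769854-53770013, plus strand): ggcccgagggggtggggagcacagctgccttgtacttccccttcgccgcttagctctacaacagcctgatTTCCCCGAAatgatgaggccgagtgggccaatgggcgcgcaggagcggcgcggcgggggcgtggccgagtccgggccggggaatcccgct
Oas1a (chr5:120907526-120907685, minus strand): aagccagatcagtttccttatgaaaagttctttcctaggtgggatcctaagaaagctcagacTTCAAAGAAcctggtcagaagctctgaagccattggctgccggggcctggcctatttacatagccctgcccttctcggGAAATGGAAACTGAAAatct
Oas1g (chr5:120887614-120887773, minus strand): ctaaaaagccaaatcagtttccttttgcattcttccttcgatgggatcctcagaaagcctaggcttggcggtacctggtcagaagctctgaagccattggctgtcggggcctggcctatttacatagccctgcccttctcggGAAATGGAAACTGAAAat
Gbp3, Gbp2, Ifit3 and Irf1 had higher signal in MA than in SPA, and Oas1a and Oas1g had lower signal. The capitals are ISRE matches in Gbp3, Gbp2 and Ifit3, a GAS match in Irf1, and 2 overlapping ISRE matches close to the start in both Oas genes, with a GAS match 98 bases before the start of Oas1a. The upstream stretches of Oas1a and Oas1g had 138 of 160 bases in common when aligned, with a longest shared run of 56 bases.

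A level is the log2 of the processed signal over the 75th percentile of its own array, so that 0 means a signal at that percentile, and a ratio is the difference between levels of the same probe on 2 arrays. Of the 59305 spots that were not controls, the scanner software marked 58.6% in SVC, 61.4% in SPA and 61.3% in MA as well above background, and 0 as saturated. The error that the software estimates for a spot was 10 to 15.3% of the signal over the 37 members above background on all arrays. Where a probe was not well above background on 1 array of a pair, only a bound on the ratio is given. The labels of SVC and SPA share a date that MA does not have, so for MA the fraction, the lack of culture and the date cannot be told apart. Summed adipocyte markers, on a linear scale of signal over the 75th percentile, were 8.93 in SVC, 70.3 in SPA and 2625 in MA, and Adipoq and Plin1 were not well above background in SVC.

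In SPA over SVC, 37 members were measured on both arrays, 20 of them were below 0 on the log2 scale, and their median log2 ratio was -0.03, beside 0.05 over all genes. The lowest log2 ratio was -0.69 at Ifitm3 and the highest 0.82 at Igtp. All 37 differed less than 2-fold, beside 93.9% of all genes measured, and 33 differed less than 1.5-fold, beside 83.3%, so that these shares lie near those of all genes. Among probes not used, Ddx58 had a log2 ratio of -1.13 at 1 probe, Rsad2 of 1.09 and Ifi44 of at most -1.61. With the median of the probes Ifi44 had -2.19, and 1 member was then lower past 2-fold. At 5-fold, 0 members were higher and 0 lower, where the shares of all genes were 0.32% higher and 0.351% lower. At 2-fold, 1 member was higher and 0 were lower, where the shares of all genes were 3.89% and 3.24%. The member past 2-fold was Oas3, an RNA-activated synthetase. It was above background in SPA alone, at a level of -3.70, which put SPA at least 2.38-fold above SVC. With normexp, another correction of the raw signal for local background, its log2 ratio was 0.32, under 2-fold.

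In MA the picture differed. By level alone, MA had the highest of the 3 levels in 31 members and the lowest in 5. This ranking takes differences of any size and levels not above background, and the matching share of all genes was not counted. Dhx58, for instance, counted as highest at 1.15-fold above SPA, and Oasl1 as lowest at 1.01-fold below it. In MA over SPA, 8 members were at least 5-fold higher and 1 was lower, where the shares of all genes were 5.47% and 3.97%. At 2-fold, 22 members were higher and 3 lower, beside 15.7% and 18% of all genes. The median log2 ratio of the 37 members measured on both arrays was 1.02, beside -0.08 over all genes. In MA over SVC, which rests on the same MA array, 9 members were at least 5-fold higher and 0 lower, beside 5.72% and 3.96% of all genes, and at 2-fold 21 were higher and 2 lower, beside 17.2% and 18%. The median there was 1.01, beside -0.07. These shares describe 3 arrays, and in tissue fractions, fewer cells of a type and less RNA per cell cannot be told apart.

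**Figure D1:**
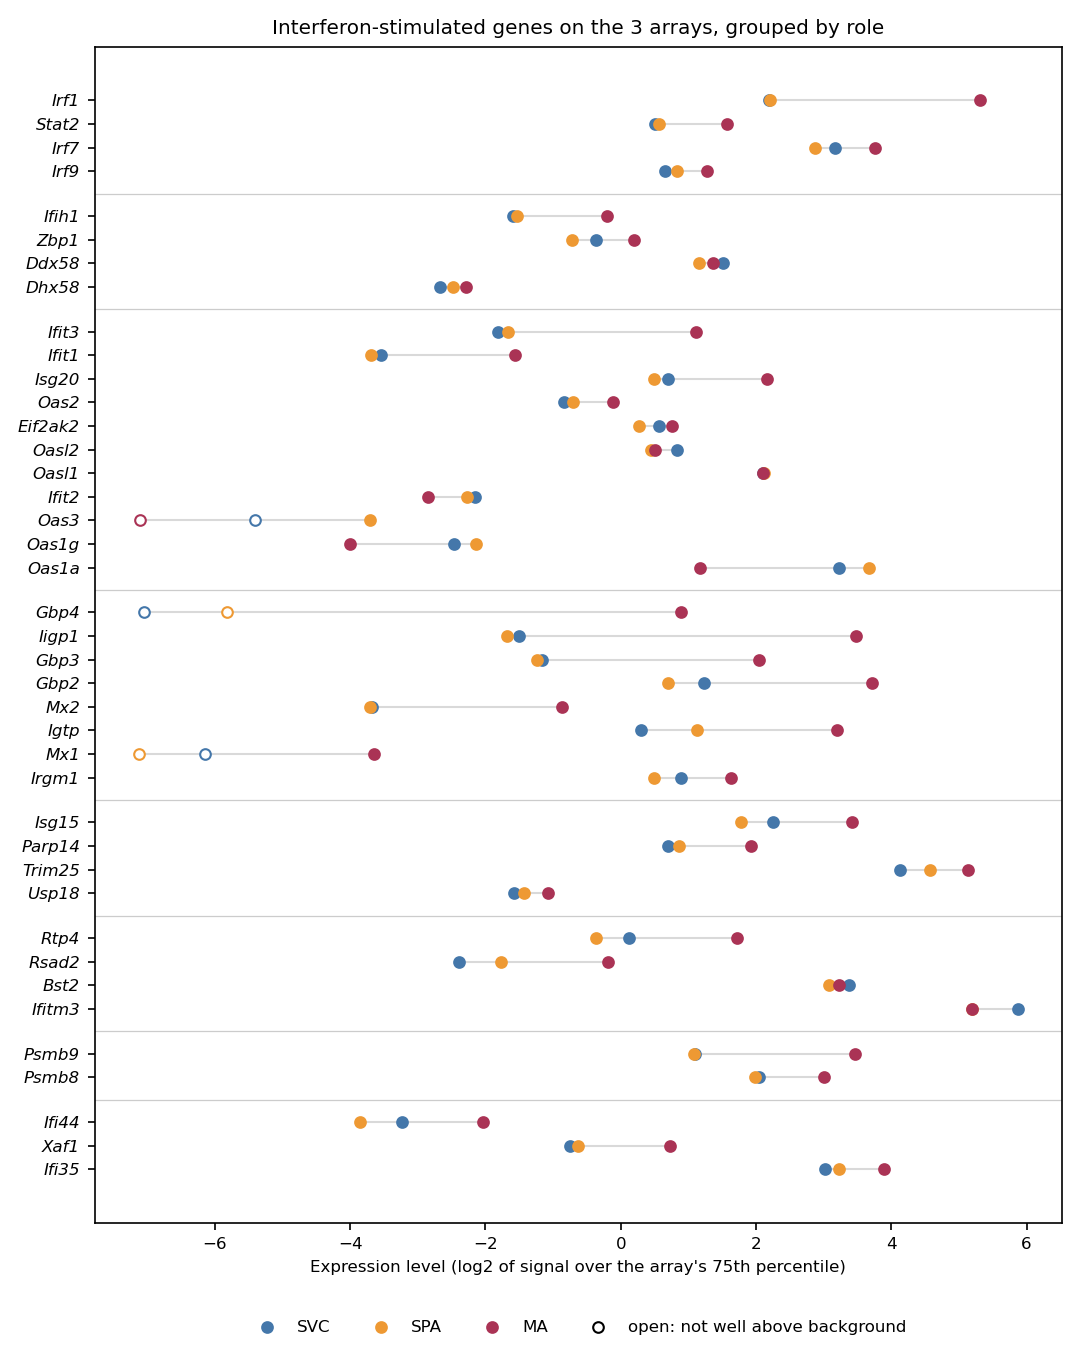
Log2 level of the 40 interferon-stimulated genes on the SVC, SPA and MA arrays, grouped by role and ordered within a role by the ratio of MA over SPA. The horizontal axis is log2 of the signal over the 75th percentile of the array, filled points were well above background and open points were not. MA is highest in 31 members, counting differences of any size. The Oas1a and Oas1g rows run the other way, as does Oas3, which was above background in SPA alone.

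Of the transcription factors of the response, Irf1 differed most between the arrays. Irf1, a factor that interferon gamma induces, had levels of 2.19 in SVC, 2.21 in SPA and 5.31 in MA. It was 8.60-fold higher in MA than in SPA and 8.67-fold higher than in SVC, while SPA and SVC were nearly equal. Its other probe, which is dimmer, had a log2 ratio of 3.72 in MA over SPA, larger than at the probe used. Stat2, which joins IRF9 in the complex that type I interferon activates, stood at 0.50 in SVC, 0.56 in SPA and 1.57 in MA. Its MA signal was 2.02-fold that of SPA at this probe, but a dimmer probe had a log2 ratio of 0.30. Irf7, which amplifies the induction of type I interferon, had levels of 3.17, 2.87 and 3.76, and Irf9 had levels of 0.65, 0.84 and 1.27. Irf9 differed less than 2-fold in every comparison, and so did Irf7 at the probe used. The Irf7 spot on the SPA array had an outlying local background, however, and the other Irf7 probe, read when such spots were left out, had a log2 ratio of 1.14 in MA over SPA, which is past 2-fold. At the probes used, 1 of the 4 regulators was thus past 5-fold and 2 past 2-fold in MA over SPA, all higher. The shares of all genes higher past these folds were 5.47% and 15.7%, and 4 genes are few to set beside them.

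Sensors of foreign nucleic acid differed by less than 5-fold. Ifih1, which encodes the RNA sensor MDA5, stood at -1.59 in SVC, -1.53 in SPA and -0.21 in MA, which put MA 2.50-fold above SPA. Its other probe gave a log2 ratio of 0.41 in MA over SPA and -0.19 in MA over SVC, so the direction against SVC depended on the probe. Ddx58, the RNA sensor RIG-I, had levels of 1.51, 1.16 and 1.36. Its relative Dhx58, which encodes LGP2, had -2.67, -2.48 and -2.28, and Zbp1, a sensor of left-handed nucleic acid, had -0.36, -0.72 and 0.20. At the probes used, none of these 3 genes reached 2-fold in any comparison, and 1 of the 4 sensors did so in MA over SPA. The shares of all genes past 2-fold there were 15.7% higher and 18% lower, and 1 of 4 lies near them. Dimmer probes gave other readings, with log2 ratios for Zbp1 of 1.39 in MA over SPA and 1.15 in MA over SVC, and for 1 probe of Ddx58 of -1.13 in SPA over SVC.

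Effectors that act on RNA and translation held genes with higher and genes with lower signal in MA. The IFIT proteins bind viral RNA and hold back its translation. Ifit3 had levels of -1.81 in SVC, -1.66 in SPA and 1.12 in MA, and was 6.84-fold higher in MA than in SPA and 7.62-fold higher than in SVC. Ifit1 had levels of -3.54, -3.68 and -1.57, and was 4.34-fold higher in MA than in SPA, or 2.16-fold with normexp. Ifit2, in the same family, was at -2.16, -2.27 and -2.85, which was 1.49-fold lower in MA than in SPA. The probes of these neighbours lie on chromosome 19 (mm9), at 34650244 to 34650303 for Ifit2, 34663105 to 34663164 for Ifit3 and 34723827 to 34723886 for Ifit1. Isg20, an exonuclease that degrades RNA, had levels of 0.70, 0.49 and 2.16, and was 3.18-fold higher in MA than in SPA.

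The oligoadenylate synthetases, which sense double-stranded RNA and activate RNase L, held all the members that were lower in MA past 2-fold. Oas1a had levels of 3.23 in SVC, 3.67 in SPA and 1.17 in MA. It was 5.68-fold lower in MA than in SPA, the 1 member past 5-fold in that direction, and 4.18-fold lower than in SVC. Oas1g had levels of -2.46, -2.13 and -4.00, and was 3.65-fold lower in MA than in SPA and 2.90-fold lower than in SVC. Oas3 was above background in SPA alone, so that MA was at least 2.73-fold below SPA. With normexp the log2 ratios in MA over SPA were -0.69 for Oas1g and -0.21 for Oas3, so that neither passed 2-fold, while Oas1a still passed 5-fold. On chromosome 5 (mm9) the probes of these genes follow one another, at 121180343 to 121180402 for Oas2, 121203598 to 121203657 for Oas3, 121332000 to 121332059 for Oas1g and 121346735 to 121346794 for Oas1a. Oas2 ran the other way from its neighbours, at -0.83, -0.70 and -0.12, and differed less than 2-fold.

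Of the other copies of the same gene, which are not among the 40, Oas1f passed 5-fold in MA over SPA. The rest read did not pass 2-fold. Oas1f stood at 2.02 in SVC, 2.48 in SPA and -0.02 in MA, with a log2 ratio of -2.50 in MA over SPA, or 5.65-fold lower. Oas1c had a log2 ratio of -0.92 and Oas1b of 0.17. These genes are close copies, a 60-base probe can bind RNA of more than 1 copy, and whether the probes keep Oas1a, Oas1g and Oas1f apart was not tested. The Oas-like genes did not follow, since Oasl1 had levels of 2.11, 2.12 and 2.10 and Oasl2 had 0.83, 0.45 and 0.51. Eif2ak2, the kinase PKR that stops translation on sensing double-stranded RNA, had 0.57, 0.27 and 0.77. Of the 11 genes of this role, 3 were higher and 3 lower past 2-fold in MA over SPA. The shares of all genes were 15.7% higher and 18% lower, so that with 11 genes these counts lie near them.

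GTPases were the role with the highest count in MA. The guanylate-binding proteins (GBP) and the immunity-related GTPases coat vacuoles that hold pathogens, and interferon gamma is known as their main inducer. Gbp4 was not above background in SVC or SPA and had a level of 0.89 in MA, at least 65.2-fold above SPA and at least 57.5-fold above SVC. With normexp the log2 ratios were 3.66 and 3.57, still past 5-fold. Iigp1 had levels of -1.50, -1.68 and 3.47, and was 35.6-fold higher in MA than in SPA and 31.4-fold higher than in SVC. A further Iigp1 probe gave log2 ratios of 4.89 and 4.29 in these comparisons, against 5.15 and 4.97. Gbp3 had levels of -1.17, -1.23 and 2.04, and was 9.69-fold higher in MA than in SPA.

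Both Gbp3 and Gbp2 lie in the Gbp cluster on chromosome 3, with probes at 142236072 to 142236131 and 142300719 to 142300778 (mm9). Gbp2 had levels of 1.23, 0.70 and 3.71, and was 8.07-fold higher in MA than in SPA and 5.57-fold higher than in SVC. Igtp, an immunity-related GTPase of the regulatory kind, had levels of 0.31, 1.13 and 3.20. It was 4.19-fold higher in MA than in SPA and 7.41-fold higher than in SVC, so that it passed 5-fold against SVC alone. Irgm1, which restrains the effector GTPases from binding the cell's own membranes, had levels of 0.89, 0.50 and 1.63, and was 2.19-fold higher in MA than in SPA. Its 3 probes above background gave log2 ratios of 1.08 to 1.13 in that comparison, and its spot on the SPA array had an outlying local background.

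The Mx proteins are GTPases that trap viral nucleocapsids, and many laboratory strains carry broken copies of Mx1. Mx2 had levels of -3.67 in SVC, -3.70 in SPA and -0.87 in MA, and was 7.11-fold higher in MA than in SPA, or 3.20-fold with normexp. Its other probe was not above background on any array. Mx1 was above background in MA alone, at a level of -3.65, which put MA at least 2.79-fold above SPA. Its other probe was not above background on any array. With normexp the log2 ratio of Mx1 in MA over SPA was 0.72, and with the median of its probes 0.30, both under 2-fold. In the reading used here, 8 of the 8 GTPases were higher in MA than in SPA past 2-fold and 5 of them past 5-fold. The shares of all genes higher past these folds were 15.7% and 5.47%. Mx1 and, at 5-fold, Mx2 were the GTPases that normexp or the median of the probes took away.

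**Figure D2:**
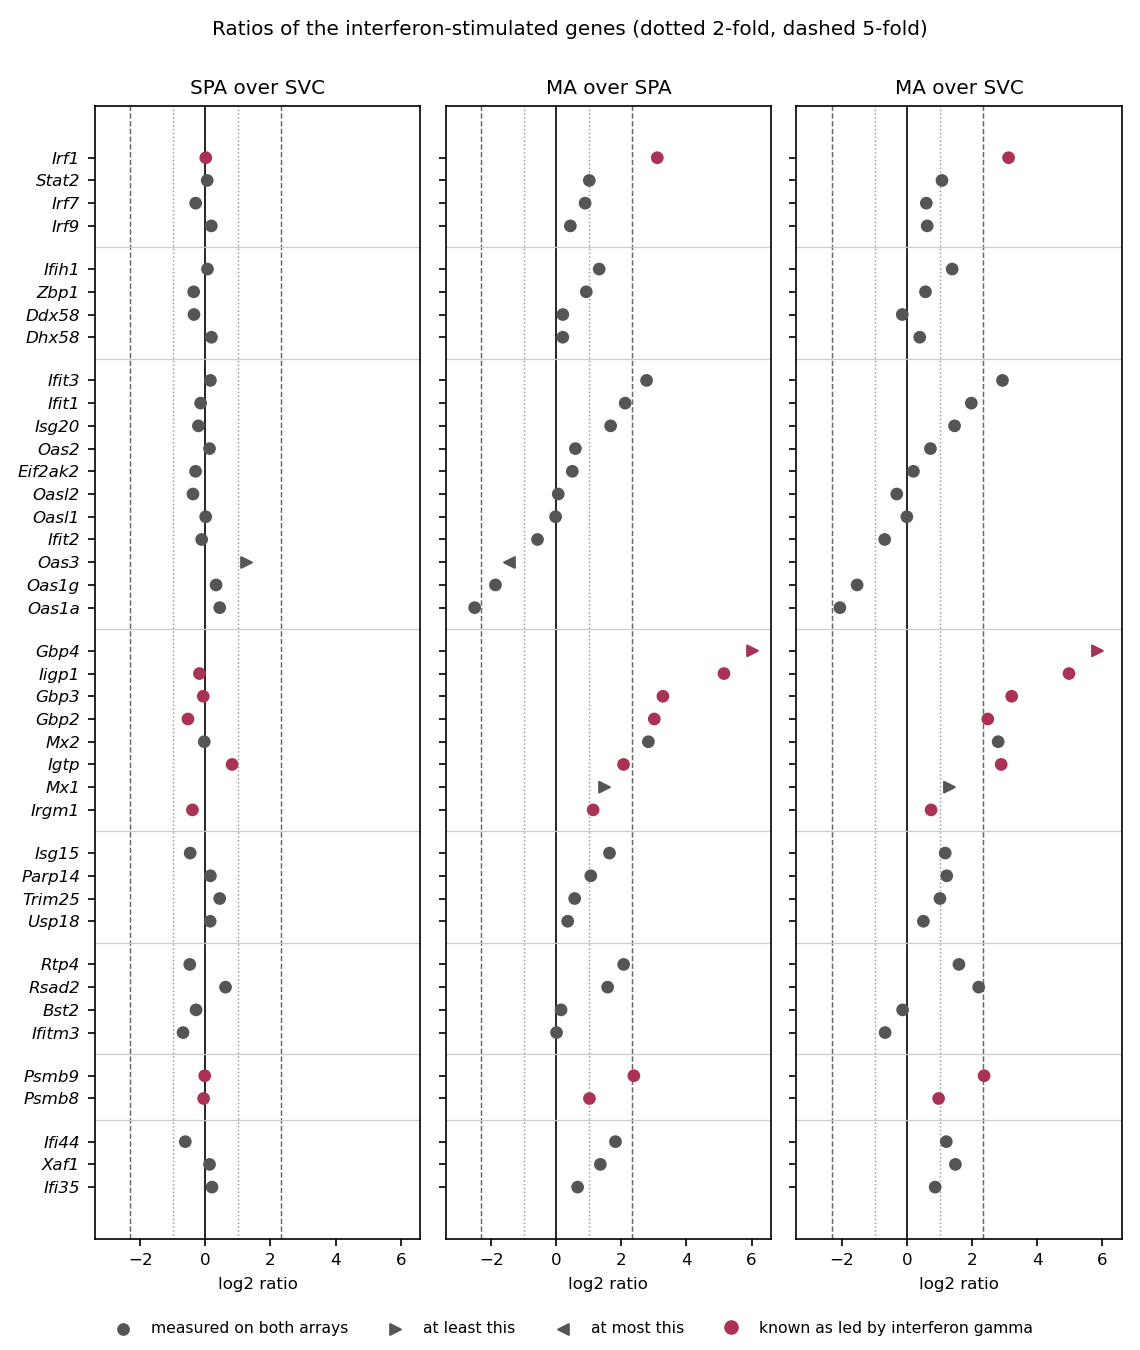
Log2 ratio of each of the 40 members in SPA over SVC, MA over SPA and MA over SVC, in the same order as the levels, with dotted lines at 2-fold and dashed lines at 5-fold. Round points were measured on both arrays, triangles are bounds, and members known as led by interferon gamma are in red. Points lie near 0 in SPA over SVC, and in both comparisons with MA Gbp4 and Iigp1 lie farthest to the right and Oas1a farthest to the left.

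The ISG15 system attaches a ubiquitin-like tag to proteins. Isg15, the tag itself, stood at 2.24 in SVC, 1.78 in SPA and 3.41 in MA, and was 3.11-fold higher in MA than in SPA. Usp18, which removes the tag and also blocks the receptor IFNAR, had -1.57, -1.43 and -1.07, a difference of 1.28-fold between MA and SPA. Trim25, a ligase that activates RIG-I, gave no single direction. Its 3 probes had log2 ratios of 0.57, -0.34 and -0.84 in MA over SPA and of 1.01, 0.29 and -0.18 in MA over SVC, and the brightest one, with levels of 4.13, 4.57 and 5.14, was the one used. Parp14, an ADP-ribosyltransferase, had levels of 0.70, 0.86 and 1.92, and was 2.09-fold higher in MA than in SPA.

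Membrane proteins of the response did not move as 1 group. Rsad2, which encodes the radical enzyme viperin, stood at -2.39 in SVC, -1.77 in SPA and -0.19 in MA. It was 2.99-fold higher in MA than in SPA and 4.59-fold higher than in SVC. Rtp4, a chaperone of receptors, had levels of 0.12, -0.36 and 1.71, and was 4.20-fold higher in MA than in SPA. By contrast, Bst2, or tetherin, which holds budding virus at the cell surface, had 3.37, 3.09 and 3.23. Ifitm3, which hinders fusion of virus with the endosome, had 5.87, 5.19 and 5.20, so that SPA and MA were alike to 1.01-fold and SVC was the highest.

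The immunoproteasome subunits replace standard subunits of the proteasome and favour peptides for antigen presentation. Psmb9 had levels of 1.10, 1.08 and 3.47, and was 5.22-fold higher in MA than in SPA, or 4.99-fold with normexp. A second probe of Psmb9 was not above background on any array. Psmb8 had 2.04, 1.99 and 3.01, and was 2.03-fold higher in MA than in SPA, or 1.99-fold with normexp, and 1.96-fold higher than in SVC. The subunits they replace were lower in MA, with log2 ratios in MA over SPA of -0.79 for Psmb6, the counterpart of Psmb9, and -1.27 for Psmb5, the counterpart of Psmb8. The shift of the inducible subunit relative to its counterpart was 9.01-fold for the Psmb9 pair and 4.90-fold for the Psmb8 pair, and it was 0.85-fold and 0.82-fold in SPA over SVC. For the remaining pair, Psmb10 and Psmb7, it was 1.47-fold in MA over SPA.

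Of the remaining members, Ifi44 had levels of -3.24, -3.85 and -2.03, and was 3.53-fold higher in MA than in SPA at its brighter probe, or 1.86-fold with normexp. Its other probe was above background in SVC alone, which would put both SPA and MA below SVC. Xaf1, a factor that promotes cell death, had levels of -0.75, -0.63 and 0.73 and was 2.56-fold higher in MA than in SPA. Ifi35, which binds the regulator NMI, had 3.02, 3.23 and 3.89 and differed less than 2-fold. Over the 15 members with at least 2 probes above background on all arrays, the range of the log2 ratio among probes of a gene had a median of 0.25 in MA over SPA and was widest, at 1.41, for Trim25. Oasl1 and Trim25 were the members whose probes had both signs in that comparison.

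Members known as led by interferon gamma and the rest differed in their counts. This list of 9 held Irf1, Gbp2, Gbp3, Gbp4, Igtp, Irgm1, Iigp1, Psmb8 and Psmb9. In MA over SPA, 6 of the 9 were higher past 5-fold and all 9 past 2-fold, with a median log2 ratio of 2.70 over those measured on both arrays. The shares of all genes past these folds were 5.47% and 15.7%. Of the other 31 members, 2 were higher past 5-fold and 13 past 2-fold, with a median of 0.66. In MA over SVC, 7 of the 9 were past 5-fold, beside 5.72% of all genes, with a median of 2.68. Many of these genes also respond to type I interferon, and both lists come from the same arrays, so the difference between them has no test.

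**Figure D3:**
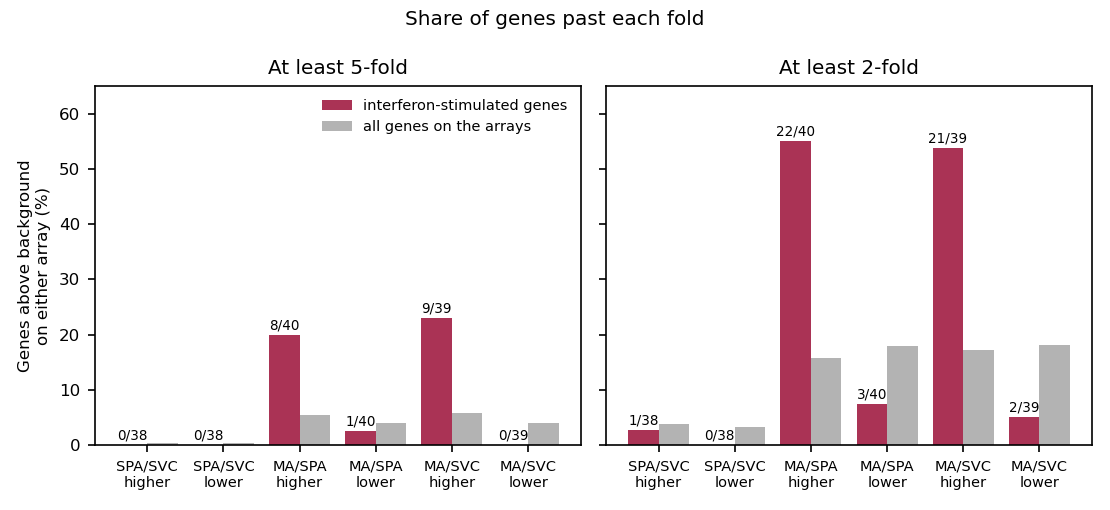
Percentage of genes past 5-fold (left) and 2-fold (right), higher or lower, in each comparison, among genes above background on either array. Red bars are the interferon-stimulated genes, with their counts, and grey bars are all genes. Members lie above all genes where MA was higher, at 8 of 40 and 9 of 39 past 5-fold, and below them where MA was lower.

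Of the interferons themselves, 17 genes were on the arrays, and SVC had 6 of them above background, SPA 8 and MA 11. Ifnb1, the gene of interferon beta, was above background in MA alone, at a level of -1.99 and at least 8.87-fold above SPA. Ifng, the gene of interferon gamma, was also above background in MA alone, at a level of -2.96 and at least 4.50-fold above SPA. The alpha interferons are near-identical copies that probes may not separate. Among them Ifna15 was above background in MA alone, at -3.11, while Ifna5 was 2.02-fold lower in MA than in SPA. At the receptors and the JAK-STAT proteins, 0 of 10 genes passed 5-fold in MA over SPA. That lies near the shares of all genes, 5.47% higher and 3.97% lower. Ifngr1, a chain of the interferon gamma receptor, passed 2-fold, with levels of 2.66, 2.73 and 4.46. The receptor genes Ifnar1 and Ifnar2 had log2 ratios of 0.18 and 0.70, and Ifngr2 of -0.35.

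Upstream of the interferons, 0 of 13 genes that lead to their induction passed 5-fold. The shares of all genes in MA over SPA were 5.47% higher and 3.97% lower, so a count of 0 of 13 lies near them. In MA over SPA, 1 passed 2-fold upward, which was Myd88, the adaptor of most Toll-like receptors, with a log2 ratio of 1.07. Another 4 passed 2-fold downward, beside 15.7% of all genes higher and 18% lower. The factor Irf5 had -1.79, the adaptors Traf3 and Ticam1 had -1.32 and -1.13, and the RNA receptor Tlr7 had -1.04. The genes named from this list, and Ifng, Ifna15, Ifna5, Oas1b, Oas1c, Gbp5 and Cxcl11, were picked after their values were seen. Irf3, a further factor in this list, had 0.58.

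Genes that restrain the signal held larger ratios. Of 12 such genes, 3 were higher in MA than in SPA past 5-fold, 5 past 2-fold, and 2 were lower past 2-fold. The matching shares of all genes were 5.47%, 15.7% and 18%. Socs3, a feedback inhibitor of JAK kinases that many cytokines induce, stood at 2.44 in SVC, 1.44 in SPA and 6.18 in MA. Its relative Socs1, which acts on interferon receptors in particular, had -1.21, -1.39 and 1.07. Irf4, a factor also known for its role in adipocytes and lymphocytes, had -3.58, -3.51 and 1.08. These amounted to 26.7-fold, 5.47-fold and 24.1-fold between MA and SPA. Tnfaip3, the ubiquitin-editing protein A20, had log2 ratios of 2.31 in MA over SPA, just under 5-fold, and 2.57 in MA over SVC. Ptpn6, a phosphatase of blood cells, had -1.92 and Adar, which edits double-stranded RNA, had -1.20 in MA over SPA.

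A wider list of 48 interferon-stimulated genes outside the 40 gave similar counts. In MA over SPA, 11 were higher past 5-fold and 1, Oas1f, lower, and 23 were higher past 2-fold, with a median log2 ratio of 0.79. The matching shares of all genes were 5.47%, 3.97% and 15.7%. The chemokines Cxcl9 and Cxcl10, which draw T cells, had the highest ratios among them. Cxcl11, another chemokine of the list, had levels of 8.50, 8.53 and 8.88 and differed less than 2-fold. Cxcl9 was above background in MA alone, at 2.80, at least 245-fold above SPA. Cxcl10 had levels of -1.92, -3.52 and 3.14, and Ccl5, another chemokine of T cells, had -0.74, -1.95 and 2.89. Of further members of the GBP family, Gbp6 had a log2 ratio in MA over SPA of 4.53 and Gbp7 of 3.54. The bounds were at least 4.80 for Gbp8 and 3.98 for Gbp9, but Gbp5 had 0.33, under 2-fold. The GTPase Tgtp2 had 5.08, Ifi27l2a 5.50, Ifi205 3.31 and Ifitm1 2.71. Between the cultured fractions, Cxcl10, Ccl5 and Tgtp2 were lower in SPA than in SVC past 2-fold, with log2 ratios of -1.60, -1.21 and -1.04. None of the 48 was higher past 2-fold, and the shares of all genes were 3.24% lower and 3.89% higher.

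**Figure D4:**
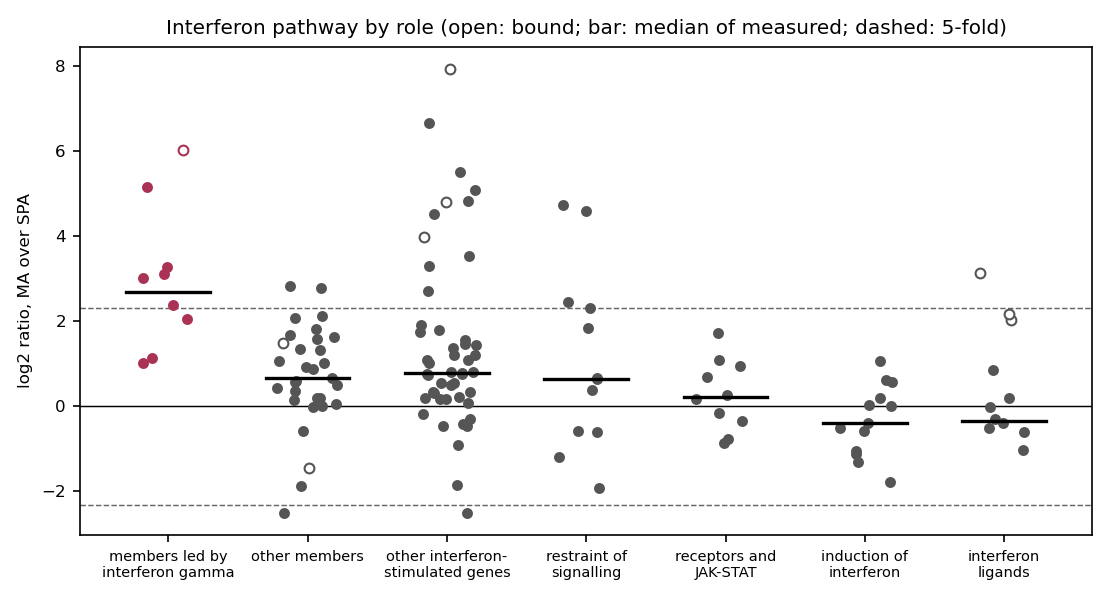
Log2 ratio of MA over SPA for the genes of the interferon pathway, by role, with 1 point per gene and small sideways shifts for visibility. Filled points were measured on both arrays, open points are bounds, black bars are medians of measured genes and dashed lines mark 5-fold. The members led by interferon gamma lie all above 0 with a median of 2.70, and the medians of the receptors, the induction genes and the ligands lie between -0.40 and 0.23.

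Motifs of interferon signalling were common near the start sites of the members. The reference table held 300-base windows, from 250 bases before to 50 after the start, for 30 of the 40 members, which had 36 windows. The ISRE core was in 17 of these windows (47.2%), and in 3.44% of the 32851 windows of all genes. The GAS letters were in 10 of the 36 (27.8%), and in 8.30% of all. Both motifs were in 5 windows, and 2 of the GAS matches overlapped an ISRE match.

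A match did not go with 1 direction. In MA over SPA, the 17 members with an ISRE match held 10 that were higher past 2-fold and 3 that were lower, with a median log2 ratio of 1.23 over the 16 measured on both arrays. The 13 members without a match held 6 higher and 0 lower, with a median of 0.89. The shares of all genes past 2-fold were 15.7% higher and 18% lower, so the 3 of 17 that were lower lie near the share of all genes. For the GAS the order was the other way, with a median of 0.58 over the 10 members with a match and 1.32 over the 19 measured members without. Oas1a, Oas1g and Oas3 each held the ISRE core, as did Gbp3, Gbp2, Ifit3, Ifit1 and Isg15. Irf1, whose GAS match starts 90 bases before the start site, had no ISRE match in its window, and Psmb9 had neither motif. Of the members led by interferon gamma with a window, 4 held an ISRE match and 3 a GAS match. These are matches of letters, not binding sites.

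**Figure D5:**
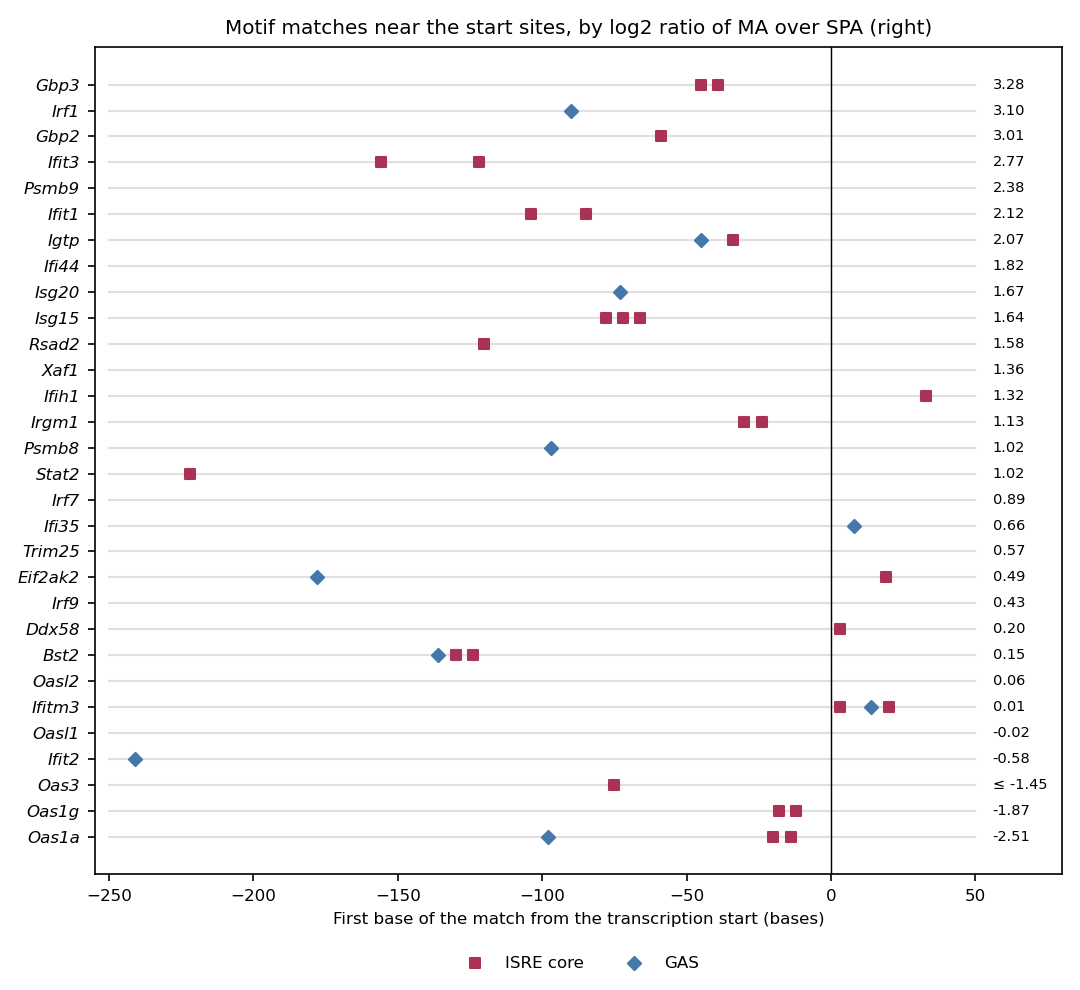
Position of ISRE core and GAS matches relative to the transcription start, in bases, for the 30 members with a promoter window, which runs from 250 bases before to 50 after the start. Members are ordered by their log2 ratio of MA over SPA, printed at the right with a bound marked for Oas3. Matches occur from the top to the bottom of the order, including Oas1a and Oas1g, the members with the lowest measured ratios.

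Markers of other cells differed between the arrays in more than 1 pattern, and their part in the values above was not tested. All 11 macrophage markers were above background on all arrays, with summed levels, on the linear scale, of 568 in SVC, 619 in SPA and 211 in MA. Of these, 2 were higher past 5-fold in MA than in SPA, C1qa and C1qb, and 1 was lower, Cd68, beside 5.47% and 3.97% of all genes. Lyz2 had the highest level of this list on each array, at 8.74, 8.81 and 6.94. The pan-leukocyte genes Ptprc, Laptm5 and Coro1a summed to 21.1, 25.3 and 10.3. Of 10 markers of lymphocytes and NK cells, SVC had 4 above background, SPA 6 and MA 8, with sums of 6.30, 6.86 and 9.08, and Cd3d and Nkg7 were among those higher in MA past 5-fold. Markers of dendritic cells, of which 4, 4 and 6 of 7 were above background, summed to 133, 155 and 253. Siglech made up most of that sum, with levels of 6.97, 7.16 and 7.92, and Itgax in the same list was 8.40-fold lower in MA than in SPA. All 6 endothelial markers were higher in MA than in SPA past 5-fold, beside 5.47% of all genes, with sums of 1.71, 3.02 and 33.7. The 5 red cell genes summed to 0.320, 0.355 and 679, and Hbb-b1, Hbb-b2 and Alas2 were not above background in SVC and SPA. Fibroblast-like markers summed to 527, 275 and 467, neutrophil markers to 3.89, 10.5 and 6.40, and mesothelial markers to 19.1, 5.63 and 19.4. Among the neutrophil markers, S100a8 was highest in SPA, at 2.62, where S100a9 was not above background.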

How the data were processed

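RNA of SVC, SPA and MA was labelled with Cy3 and hybridized to Agilent SurePrint G3 mouse arrays with 60-base probes, 1 array per fraction, all on 1 slide and in 1 scan. The authors deposited the intensity of each spot from Agilent Feature Extraction 10.7.3.1, as processed signal after background subtraction, with its error, the mean signal and the local background. The authors also deposited a ratio of each spot to 1 constant of its array, used as an alternative. The study used GeneSpring GX with a threshold of 5-fold, and any further normalization is not given in the sources used here.

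Control spots and outlier spots (75 in SVC, 98 in SPA, 129 in MA) were left out, spots of 1 probe were averaged, and each array was scaled to its 75th percentile, at a signal of 430, 439 and 366. For each gene the probe of highest average level across the arrays was used, and genes above background on neither array of a pair were not compared, which left 22809 genes for SPA over SVC, 24101 for MA over SPA and 23596 for MA over SVC. The bound for a probe not well above background used the higher of its own level and the lowest level of a probe well above background on that array (-4.95 in SVC, -5.14 in SPA, -5.15 in MA). To pass, a gene needed a fold or bound of at least 5, with 2 as a second reading, and the array with more signal had to be well above background. The 40 members had 68 probes, of which 56 had an accession in the RefSeq gene table (GRCm38.p6), 0 under another name. Probe positions are in mm9 and promoter windows in GRCm38.p6, and neither was converted. All members are accounted for, those past 2-fold with the values of all arrays, and genes of other lists by count, with names for those past 5-fold or in lists of up to 12 genes. The members and lists were chosen with earlier results of these data known. Alternatives were another background correction (normexp, offset 50, limma 3.58.1 in R 4.3.3), scaling, filter, choice of probe and fold. Python 3.11.15 with numpy 2.4.6 and pandas 2.3.3 was used, and the scripts were tested on simulated data with known folds. Results for some genes are not reported here. Precision is limited by the number of arrays.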

Additional observations from a re-analysis of the deposited data

How the results depend on the processing

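Counts past 5-fold were 6 to 9 higher in MA over SPA and 7 to 10 higher in MA over SVC under another background correction, scaling, filter or choice of probe, beside 8 and 9 as reported, and 0 in SPA over SVC in either direction. Without a filter on dim probes 2 members were lower in MA than in SPA instead of 1. With a fold of 2, 1 member was higher in SPA over SVC, 22 were higher and 3 lower in MA over SPA, and 21 were higher and 2 lower in MA over SVC. With normexp, 18 members were higher and 1 lower past 2-fold in MA over SPA, and 17 and 1 in MA over SVC, and with the median of the probes 16 were higher in MA over SVC. Mx2 and Psmb9 no longer passed 5-fold with normexp or with the median of the probes, and Gbp4 did not when both arrays had to be above background, by construction. The median of the 2 probes of Ifi44 turned its log2 ratio in MA over SVC to -0.68 and gave -2.19 in SPA over SVC. The other probe of Ifi44 was above background in SVC alone. The median over the measured members was 0.93 to 1.14 in MA over SPA, 0.67 to 1.09 in MA over SVC and -0.13 to -0.03 in SPA over SVC. No paired analysis was possible because each group holds 1 array, and no array could be left out. Signal near background limits Mx1, Gbp4, Oas3, Ifnb1 and Ifng to bounds.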
